A study of Mus musculus with 14 samples.

Results

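Dectin-1, encoded by Clec7a, and related C-type lectins were followed in epididymal white adipose tissue (eWAT) of mice fed a control diet or a Western diet (WD). The set held 10 genes of the 23282 in the deposited count table, namely Clec7a, Clec4n, Clec4d, Clec4e, Clec12a, Clec4a1, Clec4a2, Clec4a3, Clec5a and Card9. Clec7a was chosen for its rise on the WD in these same libraries, so its diet values are given as a description with no test. The other 9 genes were added as family members and as the adaptor that Dectin-1 signalling needs. All mice were wild-type male C57BL/6J animals, bought at 4 weeks of age and then kept on a diet for 20 weeks. The labels gave a normal diet and a first batch for 4 control libraries, the WD and the same batch for 5 libraries, and a normal diet and a second batch for 5 further control libraries. Every WD library belonged to batch 1, so diet and batch cannot be told apart when the WD group is set against the batch 2 controls. Diet and batch are partly confounded when the WD group is set against the controls of both batches.

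C-type lectin receptors are surface proteins of myeloid cells that bind sugars and products of damaged cells. Dectin-1 recognises fungal beta-glucan and signals through the kinase Syk to a complex of Card9, Bcl10 and Malt1, which activates NF-kB. Dectin-2 (Clec4n), Mcl (Clec4d) and Mincle (Clec4e) reach the same kinase through the adaptor Fcer1g, and Clec5a signals through Tyrobp. Clec12a and Clec4a2 carry an inhibitory motif in their cytoplasmic tail and recruit phosphatases, and Clec4a1 and Clec4a3 are close relatives of Clec4a2. In adipose tissue these receptors are known mainly from macrophages and dendritic cells, which accumulate in obesity.

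The members lie in 2 clusters on mouse chromosome 6, apart from Clec5a elsewhere on that chromosome and Card9 on chromosome 2. The bases before the annotated transcription start are shown for the 5 receptors whose levels the results turn on. In each line, capitals mark a match to GAGGAA, the core letters bound by the myeloid factor PU.1, searched on both strands (TTCCTC on the strand printed). Each sequence holds the 250 bases before the start, 5′ to 3′ on the gene's own strand, from RefSeq on GRCm38.p6, the build of the deposited positions (mm10).
Clec7a: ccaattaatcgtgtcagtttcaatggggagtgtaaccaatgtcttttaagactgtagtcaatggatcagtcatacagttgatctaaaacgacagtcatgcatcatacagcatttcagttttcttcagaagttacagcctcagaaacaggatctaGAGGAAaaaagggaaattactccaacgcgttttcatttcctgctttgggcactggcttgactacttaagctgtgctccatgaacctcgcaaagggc
Clec4a1: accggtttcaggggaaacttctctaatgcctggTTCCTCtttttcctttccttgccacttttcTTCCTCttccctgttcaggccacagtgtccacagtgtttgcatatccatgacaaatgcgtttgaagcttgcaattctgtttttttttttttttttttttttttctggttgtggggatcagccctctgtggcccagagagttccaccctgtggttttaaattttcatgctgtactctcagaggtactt
Clec4a2: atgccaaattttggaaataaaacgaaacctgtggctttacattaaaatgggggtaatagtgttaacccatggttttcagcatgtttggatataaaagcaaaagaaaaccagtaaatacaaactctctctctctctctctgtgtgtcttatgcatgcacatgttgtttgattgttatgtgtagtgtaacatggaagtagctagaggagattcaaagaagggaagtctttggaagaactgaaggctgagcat
Clec4a3: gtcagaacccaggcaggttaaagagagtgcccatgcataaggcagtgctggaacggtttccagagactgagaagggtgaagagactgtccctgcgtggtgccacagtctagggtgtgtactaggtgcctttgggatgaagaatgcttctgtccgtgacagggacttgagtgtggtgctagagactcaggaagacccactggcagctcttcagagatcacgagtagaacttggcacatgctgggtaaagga
Clec12a: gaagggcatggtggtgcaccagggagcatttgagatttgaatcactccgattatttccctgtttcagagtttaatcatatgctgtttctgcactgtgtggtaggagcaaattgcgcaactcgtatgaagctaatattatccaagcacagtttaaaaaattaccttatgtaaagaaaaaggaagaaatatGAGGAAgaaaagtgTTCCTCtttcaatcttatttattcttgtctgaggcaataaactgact
The position of Clec7a in the table is chr6:129461591-129472779 on the minus strand, and its promoter stretch is chr6:129472780-129473029 (minus). The stretches of the others are chr6:122921598-122921847 for Clec4a1, chr6:122952265-122952514 for Clec4a3, chr6:123122440-123122689 for Clec4a2 and chr6:129349994-129350243 for Clec12a, all on the plus strand. Of the 10 members, 9 had a promoter entry and 6 of these held GAGGAA, which was found in 23.3% of all 32851 promoter stretches of this length. Clec7a held 1 match, whose first printed base lies 96 bases before the start. Clec12a held 2 matches 61 and 47 bases before the start, and Clec4a1 held 2 matches 217 and 187 bases before it. Clec4a2 and Clec4a3 held none. The AP-1 letters TGANTCA, read on both strands, were in 6.75% of all stretches and in the stretch of 1 member, Clec12a, at 1 place that reads as a match on both strands. These are descriptions of letters in 1 window and no factor's binding was measured.

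QuantSeq, which primes at the poly(A) tail and reads near the 3′ end of transcripts, gave between 10278970 and 13712254 counts per library, and a count did not grow with gene length. Values are counts per 1000000 (CPM) scaled by TMM over all 14 libraries. The smallest level that could be shown, 3 counts, was worth between 0.219 and 0.292 CPM. A pair of batch 1 controls stood apart. Control replicate 4 had counts in 7999 genes against 10903 to 13780 in the other libraries, and control replicate 1 drew 3.08% of its counts from markers of the epididymis, so results are given with and without them. All 12 macrophage markers had counts, and their summed level was between 438 and 1844 CPM in the batch 1 controls, of which the highest was control replicate 4, and between 429 and 902 CPM in the batch 2 controls. In the WD group the sum was between 2034 and 3421 CPM. All 8 adipocyte markers had counts too, and their sum was between 12180 and 18220 CPM in the WD group, between 3772 and 24310 in the batch 1 controls and between 32240 and 43010 in the batch 2 controls. In bulk tissue, more cells of a type and more RNA per cell cannot be told apart.

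Clec7a was higher in every WD library than in every control library of either batch. The batch 1 controls had 3.78, 18.7, 11.2 and 24.3 CPM in replicates 1 to 4. The WD libraries had 120.2, 60.3, 104.4, 190 and 167.3 CPM, and the batch 2 controls had 25.9, 8.29, 10.6, 30.6 and 35.04 CPM. The lowest WD library, replicate 2, stood above the highest of the 9 controls, replicate 9 of batch 2. The mean was 14.5 ± 8.94 CPM (SD, n = 4) for batch 1 controls, 128.4 ± 51.5 CPM (n = 5) for WD mice and 22.1 ± 12.03 CPM (n = 5) for batch 2 controls. The log2 fold change of the WD group was 3.14 ± 0.55 (SE) against the batch 1 controls, or 8.83-fold, 2.77 ± 0.42 against all 9 controls and 2.53 ± 0.41 against the batch 2 controls. Leaving out control replicate 4 gave 3.50 ± 0.58 in batch 1, and leaving out control replicates 1 and 4 gave 3.10 ± 0.50.

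**Figure D1:**
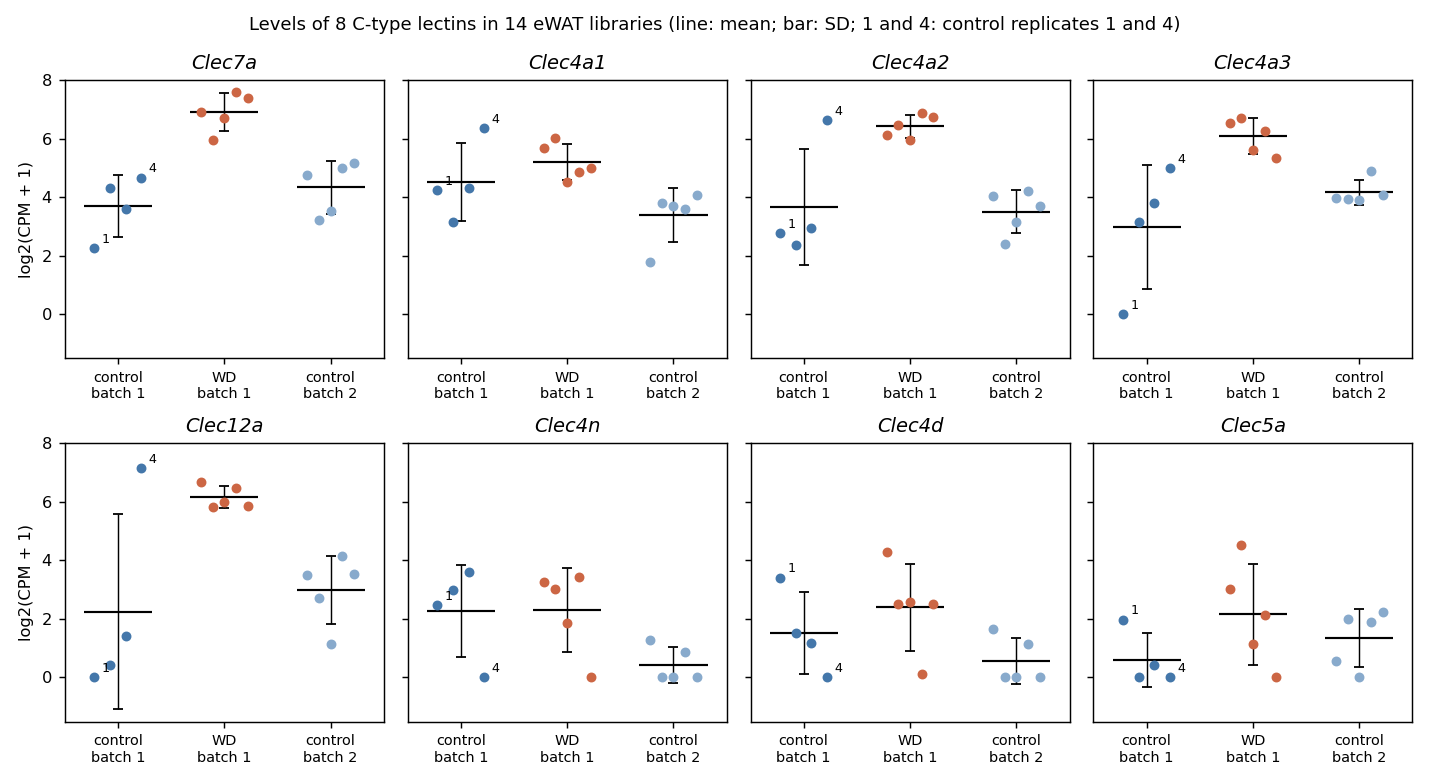
Levels of 8 C-type lectins as log2(CPM + 1) on the vertical axis, with 1 point per library, in the batch 1 controls, the WD group and the batch 2 controls; lines are means, bars are SD, and the numbers 1 and 4 mark control replicates 1 and 4. All 5 WD libraries lie above all 9 controls for Clec7a and Clec4a3, while control replicate 4 reaches the WD range for Clec4a1, Clec4a2 and Clec12a.

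Among the Dcir-like receptors, Clec4a3 was the one whose WD libraries all stood above all 9 controls. Its level was 0, 7.84, 13 and 30.6 CPM in the batch 1 controls, 92.1, 104.3, 47.8, 75.4 and 38.9 CPM in the WD group, and 14.8, 14.2, 13.9, 28.7 and 16.0 CPM in the batch 2 controls. The lowest WD library, replicate 5, was above control replicate 4, the highest control. An exact two-sided permutation test of log2(CPM + 1) gave p = 0.00794 in batch 1 and p = 0.0005 over all 14 libraries, each the smallest that the design allows. The test over all 14 libraries took no account of batch. In edgeR, with adjustment over all genes, the log2 fold change was 2.48 ± 0.97 in batch 1 (adjusted p = 0.817), 2.19 ± 0.62 against all controls (adjusted p = 0.175) and 2.02 ± 0.32 against the batch 2 controls (adjusted p = 0.000989). Without control replicates 1 and 4 the batch 1 value was 2.78 ± 0.51 (adjusted p = 0.0223). Without control replicate 1 alone, the library with no Clec4a3 count, the value against all controls was 2.04 ± 0.35 (adjusted p = 0.00482). With all libraries and batch as a covariate, the edgeR value against all controls was 2.44 ± 0.84 (adjusted p = 0.331).

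Clec4a2, the inhibitory receptor Dcir, was separated from all controls but 1. The batch 1 controls had 5.83, 4.09, 6.67 and 97.5 CPM, the WD libraries 68.9, 86.4, 60.5, 115.6 and 105.5 CPM, and the batch 2 controls 15.4, 4.29, 7.79, 17.3 and 12.1 CPM. Control replicate 4 lay inside the WD range, and the other 8 controls lay below every WD library. How many of all genes show this pattern was not counted, so it is a description. The log2 fold change was 1.61 ± 0.84 in batch 1 (adjusted p = 1.00) and 2.17 ± 0.64 against all controls (adjusted p = 0.191). With batch as a covariate it was 1.57 ± 0.77 against all controls (adjusted p = 0.594). It was 2.93 ± 0.36 against the batch 2 controls (adjusted p = 0.000101). The batch 1 value became 3.96 ± 0.42 (adjusted p = 0.00235) once control replicate 4 was left out. The exact permutation test gave p = 0.0317 in batch 1 and p = 0.0025 over all 14 libraries, and in batch 1 it missed 0.05 in 8 of the 9 tests with 1 library left out, each but that without control replicate 4.

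Reads of Clec4a2 may be shared with neighbouring genes, because alignments to several places were counted. Of the 75-base words in the last 500 bases of its GENCODE transcripts, 4.16% also occurred in Clec4a4 and 0.438% in Clec4b1, both in the same cluster. No 75-base word of the other 9 members occurred in another gene. Of the 30-base words of Clec4a2, 7.74% also occurred in Clec4b1 and 7.01% in Clec4a4. At this length Clec4n shared 3.05% with Gm44147, Clec4a3 at most 0.93% with any other gene and Card9 0.294% with Birc6. Clec4b1, which encodes the Fcer1g-coupled receptor Dcar, had 22.5 ± 34.4 CPM in the batch 1 controls (n = 4), 82.3 ± 29.4 CPM in the WD group (n = 5) and 12.4 ± 4.59 CPM in the batch 2 controls (n = 5). The ratio of Clec4a2 to Clec4b1 was between 0.331 and 2.25 in the 13 libraries with a Clec4b1 count, so the counts of this pair did not move in a fixed ratio. A varying ratio cannot show whether part of the reads was shared, and sharing with Clec4a4 was not tested. Control replicate 1 had 54 counts of Clec4a2 and none of Clec4b1.

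Clec4a1 was less clearly separated by diet. Its levels were 17.7, 7.92, 18.8 and 80.7 CPM in the batch 1 controls, 50.3, 63.8, 22.1, 28.3 and 30.5 CPM in the WD group and 2.47, 12.9, 12.1, 10.9 and 16.0 CPM in the batch 2 controls. Control replicate 4 had the highest level of all 14 libraries, and the other 8 controls lay below every WD library. This too is a description, with no share over all genes counted. The log2 fold change was 0.32 ± 0.64 in batch 1 (adjusted p = 1.00), 0.94 ± 0.58 against all controls (adjusted p = 0.856) and 1.83 ± 0.44 against the batch 2 controls (adjusted p = 0.0189). The last call was lost without WD replicate 1, at 1.72 ± 0.49 (adjusted p = 0.0575). It was 1.65 ± 0.41 against all controls (adjusted p = 0.0391) and 1.37 ± 0.51 in batch 1 (adjusted p = 0.351) without control replicate 4.

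Clec12a, an inhibitory receptor for uric acid crystals and dead cells, had the widest spread between controls. The batch 1 controls had 0, 0.334, 1.67 and 141.8 CPM, which corresponds to 0, 4, 20 and 1954 counts. The WD libraries had 100.5, 55.4, 63.6, 88.2 and 56.6 CPM, and the batch 2 controls had 10.2, 5.53, 1.198, 16.7 and 10.6 CPM. Control replicate 4 was above every WD library, and the other 8 controls were below every WD library. The share of all genes with this pattern was not counted. In batch 1 the log2 fold change was 1.02 ± 1.38 (adjusted p = 1.00), and against all controls it was 1.76 ± 1.04 (adjusted p = 0.820). Against the batch 2 controls it was 3.03 ± 0.48 (adjusted p = 0.001). Without control replicate 4 it was 6.69 ± 0.90 in batch 1 (adjusted p = 0.00706), where the 3 remaining controls averaged 0.667 CPM, and 3.64 ± 0.78 against all other controls (adjusted p = 0.0155). The exact permutation test gave p = 0.0476 in batch 1 and p = 0.00699 over all 14 libraries. In batch 1 it missed 0.05 in 8 of the 9 tests with 1 library left out.

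The members Clec4n, Clec4d and Clec5a, which like Dectin-1 signal through Syk, were low and sporadic. Clec4n, the Dectin-2 gene for a receptor of fungal mannan, had 4.54, 7.01, 11.2 and 0 CPM in the batch 1 controls, 8.61, 7.08, 2.59, 9.82 and 0 CPM in the WD group, and 1.41, 0, 0, 0.841 and 0 CPM in the batch 2 controls. WD and batch 1 control libraries overlapped, and both groups held a library with no count. Clec4d had 9.61, 1.84, 1.25 and 0 CPM in the batch 1 controls, 18.4, 4.72, 4.96, 0.0792 and 4.75 CPM in the WD group, and 2.19, 0, 0, 1.22 and 0 CPM in the batch 2 controls. Clec5a had 2.92, 0, 0.333 and 0 CPM in the batch 1 controls, 7.13, 21.8, 1.18, 3.40 and 0 CPM in the WD group and 0.494, 2.96, 0, 2.75 and 3.69 CPM in the batch 2 controls. None of these 3 genes passed an adjusted p of 0.05 in edgeR in any of the 3 comparisons with controls. Their log2 fold changes in batch 1 were -0.02 ± 1.65, 1.04 ± 1.67 and 3.03 ± 2.15. That of Clec4d was 2.67 without control replicate 1 and 0.15 without WD replicate 1, and that of Clec5a was 5.80 without control replicate 1 and 1.83 without WD replicate 2. Against the batch 2 controls the log2 fold changes were 3.59 ± 1.62 for Clec4n, 3.23 ± 1.53 for Clec4d and 1.74 ± 1.34 for Clec5a (adjusted p = 0.255, 0.284 and 0.598). No difference was called for these genes in batch 1, where their counts reached 261 at most and libraries of a group differed widely. Clec5a, for example, was between 0 and 21.8 CPM in the WD group. The part of low counts in this was not tested.

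Mincle and the adaptor were at the floor. Clec4e had 23 counts in all 14 libraries together, 22 of them in WD replicate 3 and 1 in control replicate 2. Card9 had no count in any library, and 3 counts, the limit that a count of 0 allows, were worth at most 0.292 CPM. For 5794 of the 23282 genes the table likewise holds only zeros. The 3′ end of Card9 in the deposited table stops 136 bases short of the GENCODE vM21 end, against 0 to 4 bases for the other 9 members. An opposite-strand transcript, Gm13562, overlaps the end of Card9. Whether either touches the count was not tested. Clec4e and Card9 did not pass the filter on low counts, so 8 of the 10 members were tested.

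In batch 1, where diet was compared within 1 batch, none of the 9 members other than Clec7a was called by edgeR's quasi-likelihood test at an adjusted p under 0.05, nor was any other gene (0% of 12157 genes tested). DESeq2 and limma-voom called none of the 9 either, beside 0.938% and 0% of all genes, although DESeq2 gave no p for Clec12a. At an unadjusted p under 0.05, edgeR counted 1 of the 9, Clec4a3, beside 5.17% of all genes tested. The median log2 fold change over the 7 members that passed the filter was 1.04 and that of all genes was 0.03. Every WD library stood above every batch 1 control for 1 of the 9, Clec4a3, beside 3.03% of the genes tested. Without control replicate 4, Clec4a2 and Clec12a were called, beside 0.372% of all genes tested. Without control replicates 1 and 4, Clec4a2, Clec4a3 and Clec12a were called, beside 0.796% of all genes tested.

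Against all 9 controls, edgeR called none of the 9 members, beside 0.53% of 12653 genes. At an unadjusted p under 0.05 it counted 2, Clec4a2 and Clec4a3, beside 7.73% of all genes. DESeq2 called 3 members (Clec12a, Clec4a2 and Clec4a3), beside 1.87% of all genes. Limma-voom called 2 (Clec12a and Clec4a2), beside 1.76%. Every WD library was above every control for 1 of the 9, again Clec4a3, beside 1.13% of the genes. Without control replicate 4, edgeR called 4 members, Clec4a1, Clec4a2, Clec4a3 and Clec12a, all higher in the WD group, beside 2.29% of all genes. It called the same 4 without control replicates 1 and 4, beside 4.98% of all genes. With batch as a covariate none of the 9 was called, beside 0.0079% of all genes (1 gene).

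Against the batch 2 controls alone, edgeR called 4 of the 9 members, Clec4a1, Clec4a2, Clec4a3 and Clec12a, beside 6.4% of 12070 genes, all with higher values in the WD group. The same 4 had every WD library above every batch 2 control, which held for 4.99% of the genes tested. When the 3 groups shared 1 estimate of the spread in a single fit, none of the 4 passed, with adjusted p of 0.396 for Clec12a, 0.243 for Clec4a1, 0.0731 for Clec4a2 and 0.335 for Clec4a3, beside 1.06% of all genes. Batch and diet cannot be told apart here, and these comparisons share the WD libraries.

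**Figure D2:**
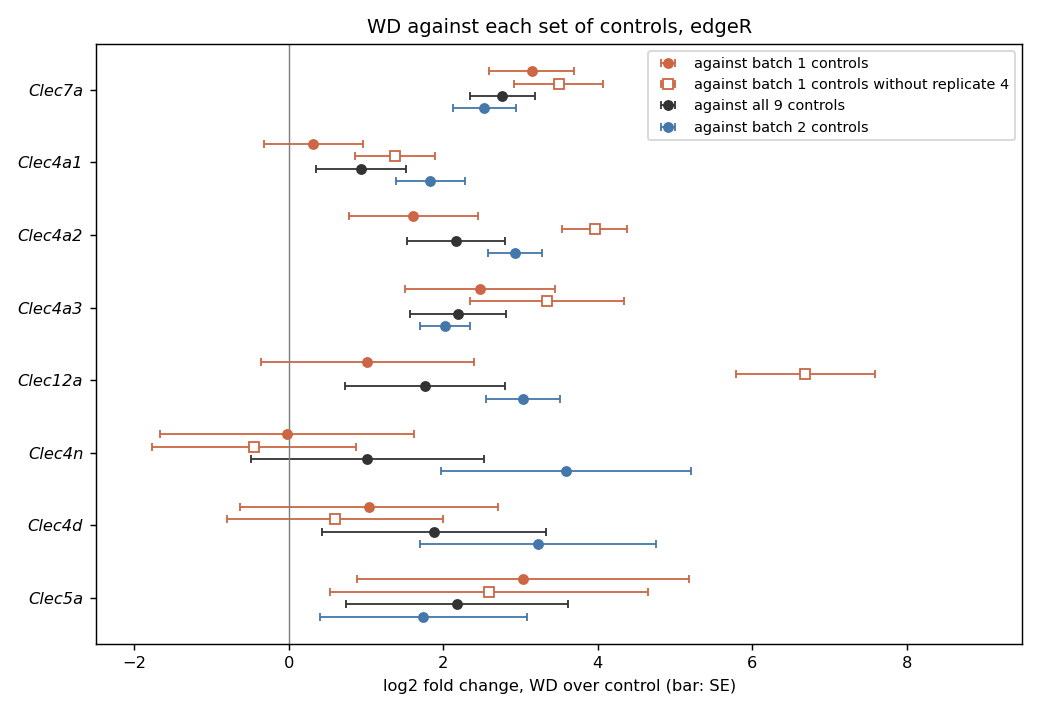
Log2 fold change of the WD group over each set of controls on the horizontal axis, for the 8 members that passed the filter, from edgeR; bars are SE and open squares leave out control replicate 4 in batch 1. The values of Clec7a lie between 2.53 and 3.50, while Clec12a moves from 1.02 to 6.69 in batch 1 when control replicate 4 is left out.

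Between the batches, the controls gave no call among the 10 members (0% of 12106 genes with edgeR at an adjusted p under 0.05). At an unadjusted p under 0.05 edgeR counted 0 of the 8 tested members, beside 7.39% of all genes, and DESeq2 and limma-voom called 0 members, beside 0.917% and 0% of all genes. Clec7a, whose selection used the diet contrast, differed by a log2 fold change of 0.60 ± 0.68 (batch 2 over batch 1, adjusted p = 0.952). The median log2 fold change of the 8 tested members was -1.43, beside -0.002 for all genes, and 3 of them had higher values in batch 2. It was -3.62 ± 2.03 for Clec4n, -2.21 ± 2.06 for Clec4d and -1.53 ± 0.75 for Clec4a1 (adjusted p = 0.783, 0.934 and 0.701). Clec4a3 and Clec5a differed by 0.44 ± 1.07 and 1.265 ± 1.968 (adjusted p = 0.985 and 0.977). Clec12a was lower by 2.03 ± 1.58 in the batch 2 controls and Clec4a2 by 1.33 ± 0.94, with adjusted p of 0.889 and 0.864. Without control replicate 4 both turned to higher values, 3.71 for Clec12a and 1.06 for Clec4a2.

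Markers of macrophages were also higher in the WD group. The mean log2(CPM + 1) of 10 macrophage markers, without Itgax and Trem2, was 5.31 ± 0.64 (SD, n = 4) in the batch 1 controls and 6.91 ± 0.35 (SD, n = 5) in the WD group, an exact two-sided permutation p of 0.00794. Control replicate 4 had the highest value of the controls, 5.93. Relative to these markers, log2 Clec7a was -2.26, -1.41, -1.49 and -1.27 in the batch 1 controls and -0.45, -0.87, -0.17, 0.51 and 0.96 in the WD group. The batch 2 controls had -0.29, -1.39, -1.07, -0.48 and 0.49 on this scale. The WD and batch 1 control libraries did not overlap, whereas 3 of the batch 2 controls lay inside the WD range. The share of all genes without overlap on this scale was not counted. Clec7a was chosen for its rise in these libraries, so these values are a description. The mean of Clec7a relative to the markers was 1.60 higher in the WD group of batch 1 and 1.01 higher against all controls. In batch 1 the log2 fold change was 2.54 ± 0.61 for Itgax, left out of the markers (adjusted p = 0.434). It was 1.94 ± 0.55 for Adgre1, which was kept (adjusted p = 0.478).

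On this relative scale the WD and batch 1 control libraries of Clec4a1, Clec4a2, Clec4a3 and Clec12a overlapped. Clec4a3 was at -2.33 ± 1.62 in the batch 1 controls and -0.82 ± 0.46 in the WD group, a difference of 1.503 (exact permutation p = 0.0318), and against all 9 controls the difference was 0.61 (exact permutation p = 0.390). Its batch 2 controls were at -1.06, -0.68, -0.70, -0.57 and -0.59, all inside the WD range of -1.28 to -0.09. Clec4a2 differed by 1.15 in batch 1 (exact permutation p = 0.198) and by 1.01 against all controls (exact permutation p = 0.0894). Clec12a differed by 2.32 in batch 1 (exact permutation p = 0.127) and by 1.65 against all controls (exact permutation p = 0.108), and in the WD group its SD was 0.177 around a mean of -0.75. Clec4a1 was lower relative to the markers by 0.90 in batch 1 (exact permutation p = 0.206). The batch 1 difference of Clec4a3 was 0.774 without control replicate 1, and its p missed 0.05 in 8 of the 9 tests with 1 library left out. Without control replicate 4 the batch 1 differences of Clec4a2 and Clec12a were 1.93 and 3.75, both with p under 0.05. No p was adjusted for the number of members. Whether macrophage number sets the receptors' levels was not tested.

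**Figure D3:**
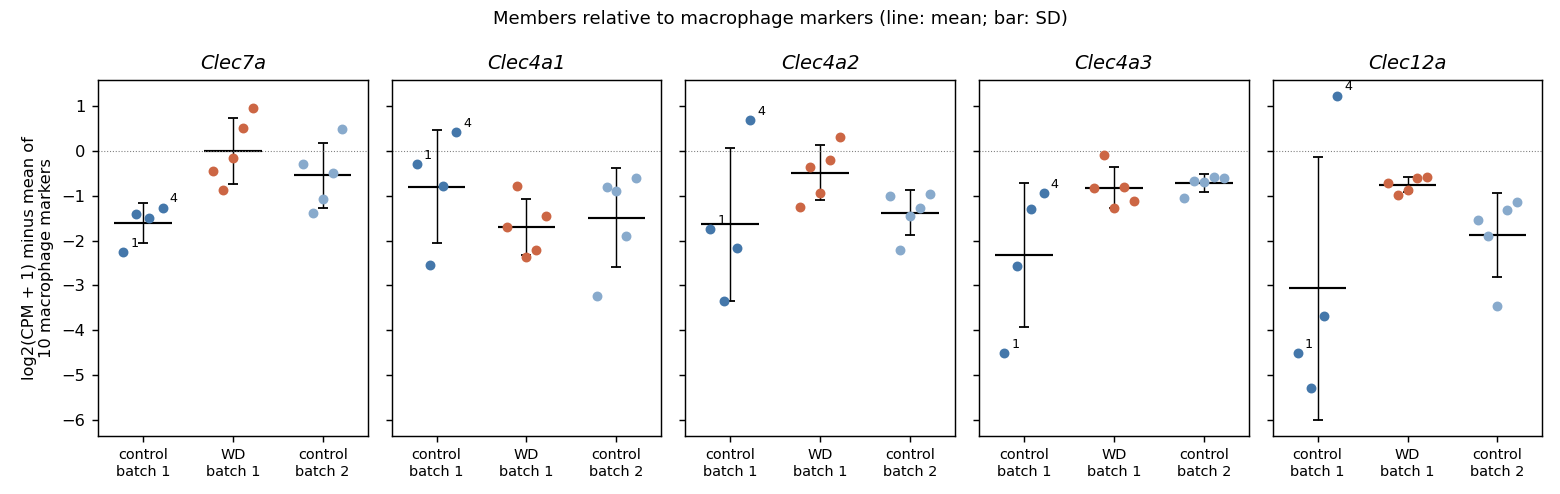
Log2(CPM + 1) of 5 members minus the mean of 10 macrophage markers on the vertical axis, with 1 point per library, in the batch 1 controls, the WD group and the batch 2 controls; lines are means, bars are SD, the dotted line is the marker mean and the numbers 1 and 4 mark control replicates 1 and 4. Clec7a lies between -0.87 and 0.96 in the WD group and between -2.26 and -1.27 in the batch 1 controls, and 3 batch 2 controls fall inside the WD range.

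Summed markers of 5 other kinds of immune cells overlapped between the WD group and each set of controls. No gene of these lists was called by edgeR in batch 1 or against all controls, beside 0% and 0.53% of all genes. All 6 monocyte markers had counts, and their sum was between 35.5 and 145.7 CPM in the WD group, between 23.8 and 142.3 CPM in the batch 1 controls and between 67.2 and 125.8 CPM in the batch 2 controls. The 8 dendritic cell markers, all with counts, summed to between 11.2 and 22.4 CPM in the WD group, between 4.76 and 15.5 CPM in the batch 1 controls and between 7.63 and 14.7 CPM in the batch 2 controls. The 7 neutrophil markers in the table summed to between 56.8 and 161.8 CPM in the WD group, between 138.9 and 318.3 CPM in the batch 1 controls and between 38.6 and 138.6 CPM in the batch 2 controls. Of 4 neutrophil markers tested in batch 1, 0 had higher values in the WD group (median log2 fold change -1.67). The 6 mast cell markers, all with counts, summed to between 10.3 and 118.9 CPM in the WD group, between 0 and 33.6 CPM in the batch 1 controls and between 7.09 and 45.5 CPM in the batch 2 controls. All 4 tested in batch 1 had higher values in the WD group (median log2 fold change 2.25), beside 11 of 11 macrophage markers (median 1.54). The 8 lymphocyte markers summed to between 3.83 and 69.9 CPM in the WD group, between 0 and 4.00 CPM in the batch 1 controls and between 0 and 5.09 CPM in the batch 2 controls. The part of these cells in the receptors' levels was not tested.

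The genes whose profile over the 14 libraries was nearest to that of Clec7a were Adgre1, Apobec1, Fyb, Tnfaip8l2 and Tyrobp. Likeness was the root mean square difference of centred log2(CPM + 1), taken over the 9870 genes outside the members with a mean of at least 5 CPM, and it was 0.742 for Adgre1 and 0.787 for Tyrobp. All libraries shared the same depth scaling, and the profiles shared the diet difference for which Clec7a was chosen. Placed among those genes, Clec4a2 took rank 25 (0.912), Clec4a3 rank 35 (0.949), Clec12a rank 808 (1.40) and Clec4a1 rank 1749 (1.54). Adgre1, the macrophage marker F4/80, had 71.7 ± 66.8 CPM in the batch 1 controls, 276.5 ± 80.2 CPM in the WD group and 42.1 ± 8.55 CPM in the batch 2 controls. Itgax, which encodes CD11c, had 9.87 ± 9.58, 57.5 ± 13.1 and 7.19 ± 6.15 CPM in the same order. Against all controls Adgre1 was higher by 2.30 ± 0.39 (adjusted p = 0.00973) and Itgax by 2.75 ± 0.57 (adjusted p = 0.0278) on the log2 scale. With batch as a covariate neither was called, at 1.91 ± 0.48 (adjusted p = 0.163) and 2.51 ± 0.76 (adjusted p = 0.257).

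Downstream of the receptors, the adaptor Tyrobp (Dap12) was the 1 gene of 4 signalling lists called against all 9 controls, and with batch as a covariate none was. The lists held 65 genes of the table, of which 52 were tested, so 1 call of 52 stands beside 0.53% of all genes. Of the 52, 38 had higher values in the WD group, and 11 had an unadjusted p under 0.05, beside 7.73% of all genes. In batch 1 none of 50 tested genes was called by edgeR or limma-voom, DESeq2 called 1, beside 0.938% of all genes. At an unadjusted p under 0.05 edgeR counted 3 of the 50, beside 5.17% of all genes, a share near the background. Their median log2 fold change was 0.39 in batch 1 and 0.54 against all controls, beside 0.03 and -0.04 for all genes. The lists were chosen with results of these data known. Without control replicate 4, edgeR called 4 of 52 against all controls, Cybb, Tyrobp, Fcer1g and Lyn, beside 2.29% of all genes.

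Of the 15 receptor adaptors and proximal kinases tested against all controls, 12 had higher values in the WD group. Of these 15, 1 was called, beside 0.53% of all genes. Tyrobp had 44.7 ± 33.95 CPM in the batch 1 controls, 172.9 ± 36.2 CPM in the WD group and 34.4 ± 13.2 CPM in the batch 2 controls. Its log2 fold change against all controls was 2.13 ± 0.34 (adjusted p = 0.00647). With batch as a covariate the value was 1.92 ± 0.44 (adjusted p = 0.116), and within batch 1 it was 1.95 ± 0.46 (adjusted p = 0.434). The batch 1 value without control replicate 4 was 2.59 ± 0.38 (adjusted p = 0.0122). Fcer1g, the common gamma chain used by Dectin-2, Mcl and Mincle, had 69.4 ± 42.9, 127.8 ± 20.98 and 33.2 ± 16.7 CPM in the batch 1 controls, the WD group and the batch 2 controls. Its log2 fold change was 0.88 ± 0.39 in batch 1 (adjusted p = 0.932) and 1.35 ± 0.37 against all controls (adjusted p = 0.158). The Src-family kinase Lyn and the protein kinase C gene Prkcd differed by 1.201 ± 0.468 and 0.68 ± 0.67 against all controls (adjusted p = 0.441 and 1.00). Genes called against the batch 2 controls, all higher in the WD group, included Vav1, Tyrobp, Syk, Fcer1g, Prkcd and Lyn, in a comparison that called 6.4% of all genes.

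The Card9 complex and its transcription factors gave no call in any of the 3 comparisons with edgeR. Of all genes, 0% were called in batch 1, 0.53% against all controls and 6.4% against the batch 2 controls. Of 21 genes tested against all controls, 11 had higher values in the WD group, with a median log2 fold change of 0.07 beside -0.04 for all genes. At an unadjusted p under 0.05 there were 0, beside 7.73% of all genes. Tab2, a scaffold of the kinase Map3k7, had 87.0 ± 35.3 CPM in the batch 1 controls, 83.5 ± 12.03 CPM in the WD group and 85.5 ± 20.0 CPM in the batch 2 controls. Its log2 fold change was -0.06 ± 0.24 against all controls. The NF-kB subunit Rela differed by 0.26 ± 0.24, Map3k7 (Tak1) by -0.40 ± 0.32 and the kinase Ikbkb by 0.07 ± 0.35.

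Of 6 inhibitory phosphatases and ubiquitin ligases tested against all controls, all 6 had higher values. None was called, beside 0.53% of all genes, and 1 had an unadjusted p under 0.05, beside 7.73%. Ptpn11, the phosphatase Shp2, had 104 ± 16.9 CPM in the batch 1 controls, 153.6 ± 18.1 CPM in the WD group and 175.9 ± 14.4 CPM in the batch 2 controls, so the batch 2 controls had the highest mean. The ligase Cbl, the phosphatase Dusp1 and Ubash3b differed by 0.78 ± 0.40, 0.14 ± 0.51 and 1.01 ± 0.59 on the log2 scale against all controls. Against the batch 2 controls Inpp5d, Ubash3b and Ptpn6 were called, 3 of 6 tested, beside 6.4% of all genes, all higher in the WD group. Ptpn6 encodes Shp1, which inhibitory lectin receptors recruit.

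Products known to be induced through Dectin-1 were detected in part. Of 20 genes, 10 passed the filter against all controls, 9 of them had higher values, and none was called, beside 0.53% of all genes. At an unadjusted p under 0.05 there were 4, beside 7.73% of all genes. Cybb, the membrane subunit of the phagocyte oxidase, had 62.3 ± 66.4 CPM in the batch 1 controls, 217.8 ± 44.9 CPM in the WD group and 45.0 ± 11.2 CPM in the batch 2 controls. Its log2 fold change against all controls was 2.02 ± 0.46 (adjusted p = 0.0558), and without control replicate 4 it was 2.44 ± 0.38 (adjusted p = 0.00146). The oxidase subunit Ncf1 differed by 1.02 ± 0.45 and the inflammatory caspase Casp1 by 1.62 ± 0.60 (adjusted p = 0.577 and 0.390). Casp8, a caspase in the Dectin-1 pathway, differed by 0.42 ± 0.36. Il6, Il10, Ptgs2 and Nlrp3 had no count in any library.

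**Figure D4:**
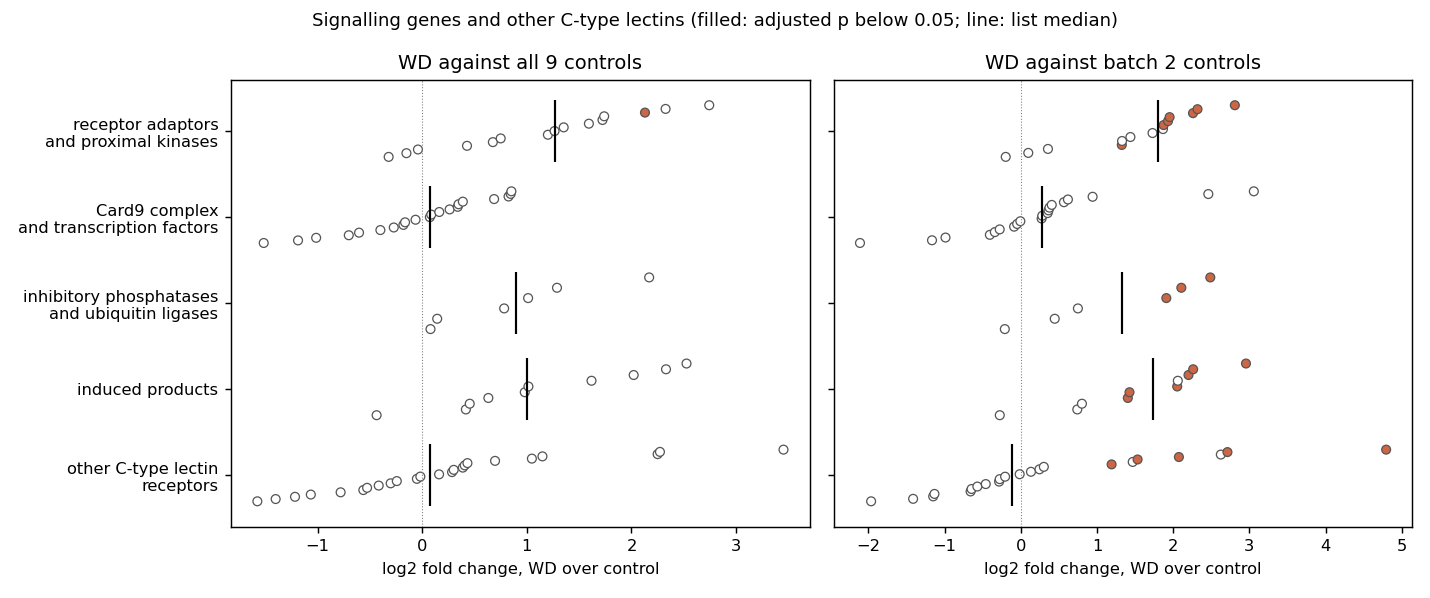
Log2 fold change of the WD group over all 9 controls (left) and over the batch 2 controls (right) on the horizontal axis, with 1 point per tested gene, for 4 signalling lists and the other C-type lectin receptors; filled points had an adjusted p below 0.05 in edgeR and black lines are list medians. Against all controls 1 point is filled, Tyrobp, and the Card9 list is centred near 0 in both panels, at 0.07 and 0.28.

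The other C-type lectin receptors, 36 genes of which 24 were tested against all controls, did not shift together. Of the 24 genes, 12 had higher values in the WD group, and the median log2 fold change was 0.07. None was called by edgeR, beside 0.53% of all genes, and 3 had an unadjusted p under 0.05, beside 7.73%. Mrc1, the mannose receptor of resident macrophages, had 140.5 ± 86.7 CPM in the batch 1 controls, 170 ± 51.8 CPM in the WD group and 73.8 ± 23.5 CPM in the batch 2 controls. Its log2 fold change was 0.27 ± 0.47 in batch 1 and 0.70 ± 0.38 against all controls. Clec10a, a galactose-binding receptor, differed by 0.63 ± 0.59 in batch 1 and by 1.05 ± 0.45 against all controls. Cd302 differed by -0.05 ± 0.30 and Cd93 by 1.15 ± 0.63 against all controls. Mrc2, Clec4b1, Cd93, Clec10a and Mrc1 were called against the batch 2 controls, 5 of 22 tested, beside 6.4% of all genes, and they were higher in the WD group.

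Neighbours within the clusters were read from the same table. In the stretch that holds Clec4a1 to Clec4e, Clec4b2 and Vmn2r19 had no count in any library. Clec4a4 had 290 counts in all and means of 0, 4.22 and 0.678 CPM in the batch 1 controls, the WD group and the batch 2 controls. Necap1, a gene at the edge of the cluster that is not a lectin, had 10.2, 20.4 and 15.0 CPM. Beside Clec7a, Clec1a had means of 6.34, 9.59 and 8.03 CPM, and Olr1, which encodes the oxidised lipoprotein receptor Lox-1, had 7.47, 1.12 and 0.801 CPM in the same order. Olr1 had 464 counts in all and did not pass the filter on low counts in any comparison with controls, so it was not tested. Gabarapl1 had means of 273.2, 224.4 and 222.5 CPM in that order. The log2 fold change against all controls was 0.39 for Clec1a and -0.14 for Gabarapl1 (adjusted p = 1.00 for both). Between Clec12a and Clec7a, Clec12b, Clec1b and Clec9a had totals of 13, 285 and 141 counts.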

How the data were processed

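QuantSeq 3′-mRNA sequencing of eWAT covered 14 mice. Bowtie2 aligned the single-end 75-base reads, bedtools counted alignments per gene, multiple ones included, and the authors deposited these raw counts. The build mm10 is from the submitters' processing notes. The authors also deposited log2 values, made in edgeR by TMM and CPM scaling. These were checked against log2(CPM + 1) recomputed here, differed by 0.000964 at the median and by 0.0507 at most, and entered no test. Whether counting used strand is not given in the sources used here. Totals were between 10278970 and 13712254 counts per library, with no row lacking a gene name. The sources name no molecular identifiers, so the 3-count floor covers counting error only.

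The counts were tested with edgeR 4.0.16 (quasi-likelihood, TMM, filterByExpr, no covariates, Benjamini-Hochberg over all genes, FDR 0.05) in R 4.3.3. SE was the size of the log2 fold change divided by the square root of F. DESeq2 1.42.0 and limma 3.58.1 (voom) were alternatives, as were other normalizations and filters, a pseudocount of 0.1 and each library left out. Exact permutation tests used log2(CPM + 1) and took no account of batch. Levels, likeness and sequences were computed with Python 3.11.15, numpy 2.4.6 and pandas 2.3.3, and plots with matplotlib 3.10.9. Groups followed the diet and batch labels. Replicates were separate animals. The tests were also run on simulated counts with known changes, of which each tool called some and missed others.

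The members, lists and tests were chosen with earlier results of these data known. Named by rule were all members, the 4 genes with the highest mean log2(CPM + 1) in each signalling list and among the other C-type lectins, Adgre1, Itgax and the 5 genes nearest to Clec7a. Other genes were named after their values were seen, as genes called, cluster neighbours or genes without counts. Of the 10 members, 9 matched a RefSeq promoter entry. Not every gene of the signalling lists is reported here.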

Additional observations from a re-analysis of the deposited data

Results flagged for a closer look

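In 33 groups of 4 or 5 libraries (10 members and the macrophage marker mean in 3 groups each), the highest or lowest library was compared with the others by Dixon's 95% limit. Of these groups 4 held only zeros and could pass no limit, and 2, both of Clec4e, held 1 library above 0, which passes the limit by construction. Of the other 27 groups 3 had a library past the limit, where chance at about 1 in 20 gives 1.35. The values are log2(CPM + 1). Clec4a2 in control replicate 4 was at 6.62, against 2.35 to 2.94 in the other batch 1 controls. Clec4a1 in control replicate 5 was at 1.80, against 3.58 to 4.09 in the other batch 2 controls. Clec4a3 in control replicate 8 was at 4.89, against 3.90 to 4.08 in the other batch 2 controls. Clec4e was at 1.39 in WD replicate 3 and at 0.116 in control replicate 2, against 0 in the other libraries of each group, and the latter value is 1 count.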

How the results depend on the processing

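Counts of called members ended or appeared under some settings. In batch 1, 0 members were called, 2 without control replicate 4 (0 to 2 with 1 library left out) and 3 without control replicates 1 and 4, a setting chosen after seeing the data. Against all controls, 0 were called, 3 by DESeq2, 2 by limma-voom, 0 to 4 with 1 library left out and 4 without control replicates 1 and 4. Leaving out control replicate 1 gave 1 call, Clec4a3. Against the batch 2 controls, 4 were called, 0 with the 3 groups in 1 fit and 3 to 4 with 1 library left out, Clec4a1 being lost without WD replicate 1. Of the signalling genes in batch 1, 0 were called, 1 by DESeq2, 0 to 1 with 1 library left out and 2 without control replicates 1 and 4. Against all controls 1 was called, 3 by DESeq2, 5 by limma-voom, 0 with batch as a covariate, 1 to 4 with 1 library left out (2 without control replicate 1) and 9 without control replicates 1 and 4. The cause was not tested. With the replicate block in batch 1, 0 members and 0 signalling genes were called. Same-numbered control and WD libraries correlated in their deviations by -0.0267, 0.0407, 0.0555 and 0.0739, so the numbers were not taken as pairs. Voom shifted the median log2 fold change of all genes in batch 1 to 0.42, and the replicate block to 0.29.

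Both low and abundant members changed sign. In batch 1, the log2 fold change of Clec4n was -0.02, 0.34 by limma-voom, 0.79 with the replicate block and between -0.45 and 0.52 with 1 library left out. That of Clec4a1 ranged from -0.037 (without control replicate 2) to 1.37 (without control replicate 4). Against all controls, Clec4n was at -0.012 with batch as a covariate. Between the control batches, Clec12a was at 2.03 by limma-voom, between -2.48 and 3.71 with 1 library left out and at 3.14 without control replicates 1 and 4, and Clec4a2 was between -1.72 and 1.06 and at 1.08. The mean log2(CPM + 1) difference of Clec4n in batch 1 ranged from -0.71 to 0.62 and was -0.99 without control replicates 1 and 4, and that of Clec4a2 between control batches ranged from -0.615 to 0.81 and was 0.85. Relative to macrophage markers in batch 1, Clec4d ranged from -1.43 to 0.17 with 1 library left out, and Clec5a from -0.65 to 0.68, at 1.04 with a pseudocount of 0.1 and at 0.44 without control replicates 1 and 4. Against all controls, a pseudocount of 0.1 gave 0.009 for Clec4n and 0.56 for Clec4d, which ranged from -0.79 to 0.18 with 1 library left out. The log2 fold change of Clec7a in the diet comparisons kept its direction under every alternative run. Because Clec7a was chosen for its rise in these same libraries, this is a description and no support for that rise. Clec4e and Card9 had at most 1 count in every library but WD replicate 3, which had 22 of Clec4e, and no difference could be shown for them. The part of depth in this was not tested.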
